A study of Homo sapiens with 4 samples.

Results

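The regions described here are the 5.8S rRNA, nucleotides 6621 to 6777 of the human 47S pre-rRNA, and the 5′ stretch of 28S rRNA that pairs with it, nucleotides 7933 to 8367. They were taken by coordinates, as all positions the deposited files assign to 5.8S and the first positions they assign to 28S, and make up 592 of 13780 nt (4.30%). Their coverage was measured by CRAC, in which RNA crosslinked to a tagged protein in living cells is purified, trimmed and sequenced. The cells were Flp-In T-REx HEK293, a human embryonic kidney line that carries a construct at a fixed site under a tetracycline-controlled promoter.

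There were 4 libraries, 1 per group. All lines were induced for 24 h, and complexes were taken first with native anti-FLAG beads and then with denaturing Ni-NTA. The tag-only UV library came from cells expressing the Flag-His tag alone, and the NKRF UV library from cells expressing Flag-His-tagged NKRF, both crosslinked at 254 nm. The tag-only PAR and NKRF PAR libraries came from the same kinds of cells given 100 µM 4-thiouridine for 6 h and crosslinked at 365 nm. The labelled NKRF is thus a tagged, induced copy in a cultured line, and the tag-only cells are the only measure of background. Cell-type markers could not be checked, because the files hold rRNA positions and RNA classes only.

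In the ribosome, 5.8S lies base-paired to 28S at both of its ends, and the pair is cut from one precursor in which the spacer ITS2 separates them. ITS1 precedes 5.8S. The 5′-3′ exonuclease XRN2 trims precursor 5′ ends of 5.8S and 28S, the 5.8S RNA of human cells occurs with a longer and a shorter 5′ end, and the exosome trims its 3′ end. G-patch proteins such as NKRF switch on RNA helicases, and the title of the series ties NKRF to XRN2 recruitment and to the helicase DHX15.

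The whole 5.8S sequence is shown first, as deposited, because the results compare its beginning with its end. Capitals mark the longest run of letters complementary to the 28S stretch (nucleotides 4 to 14 of 5.8S) and a run of 7 pairs with nucleotides 13 to 19 of 28S, near its start (142 to 148). Another run of 7 pairs, nucleotides 143 to 149 with 7 to 13 of 28S, overlaps the latter and is not marked.

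5.8S: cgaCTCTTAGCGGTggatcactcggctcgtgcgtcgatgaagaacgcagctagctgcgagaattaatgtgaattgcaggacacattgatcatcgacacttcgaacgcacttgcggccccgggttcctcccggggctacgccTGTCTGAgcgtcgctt

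The parts of 28S complementary to the marked runs follow, at 8344 to 8370 and 7937 to 7959 of the 47S, with the complementary letters in capitals. Which letters were paired in the cells was not tested.

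28S, nucleotides 420 to 430: ggcgtgaaACCGTTAAGAGgtaaacgg

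28S, nucleotides 13 to 19: acctcagaTCAGACGtggcgacc

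The 3 mature ends are shown with 20 nt of spacer, because the positions at which coverage began or stopped are a main result. Capitals mark the mature RNA, and the regions are 6601 to 6640, 6758 to 6797 and 7913 to 7952 of the 47S.

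5.8S 5′ end: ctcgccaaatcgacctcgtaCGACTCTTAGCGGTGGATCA

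5.8S 3′ end: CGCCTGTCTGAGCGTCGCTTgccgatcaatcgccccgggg

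28S 5′ end: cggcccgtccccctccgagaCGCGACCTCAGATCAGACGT

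Coverage is given in normalised hits, reads over a nucleotide per 1000000 reads of the library. The value of 1 read, recovered from the spacing of low values, was 1.19, 0.919, 8.91 and 4.43 normalised hits for UV with the tag alone, UV with NKRF, PAR with the tag alone and PAR with NKRF. The fewest reads that could give the coverage of 5.8S were 1077, 7912, 12 and 155 in that order, and of the 28S stretch 1416, 5275, 13 and 148. The tag-only PAR library is therefore too thin to give a profile. Intervals below are 95% intervals. Those of percentages of reads are Clopper-Pearson intervals. Those of ratios come from the binomial split of the fewest reads, scaled to the ratio of coverage, and are approximate. For steps at the mature ends, reads that cross the end also count on both sides, which makes those intervals less exact still. Reads were amplified by PCR with no molecular identifiers named in the labels, so intervals cover counting error only. With 1 library per group nothing was tested across samples, and no difference has a replicate check.

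Along 5.8S, coverage dipped in the middle and was highest toward the 3′ end with UV, while with NKRF PAR the parts on both sides of the dip were about equally high. The mean over 5.8S was 384 normalised hits in the tag-only UV library, 2380 in the NKRF UV library, 19.9 in the tag-only PAR library and 163 in the NKRF PAR library. Both UV libraries peaked at the same nucleotide, G114, at 751 normalised hits with the tag alone and 5421 with NKRF. The NKRF PAR library peaked at C19, at 297, and came close to that at G115, at 288. The tag-only PAR peak was 45 normalised hits at T136, about 5 reads.

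The division of 5.8S coverage among its parts differed between the libraries. Nucleotides 1 to 53 held 25.9% of the 5.8S coverage in the tag-only UV library, 16.4% in NKRF UV, 32.3% in tag-only PAR and 40.3% in NKRF PAR. Nucleotides 106 to 157 held 45.1%, 56.0%, 48.4% and 38.8% in the same order. Leaving aside tag-only PAR, with 12 reads, the last part held the largest share in both UV libraries. In NKRF PAR the first and last parts were near each other, on at least 79 and 78 reads, and their order cannot be read.

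The 28S stretch began high and fell away in UV. Mean coverage was 186 normalised hits with the tag alone and 598 with NKRF after UV, and 9.23 and 46.0 after PAR. The UV peaks were 732 at A47 with the tag alone and 2267 at A15 with NKRF. The PAR peaks were 80 at A73 with the tag alone, about 9 reads, and 151 at C1 with NKRF, a height also reached at C222. Nucleotides 1 to 87 held 57.2% of the coverage of the stretch in tag-only UV, 51.0% in NKRF UV, 69.1% in tag-only PAR and 39.0% in NKRF PAR. Nucleotides 175 to 261 held 8.0%, 18.3%, 1.12% and 30.2% in that order, so this inner part took a larger share with NKRF in both modes. In the tag-only PAR library 284 nt of the stretch had no read, against 28 nt in NKRF PAR and 0 in both UV libraries.

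**Figure D1:**
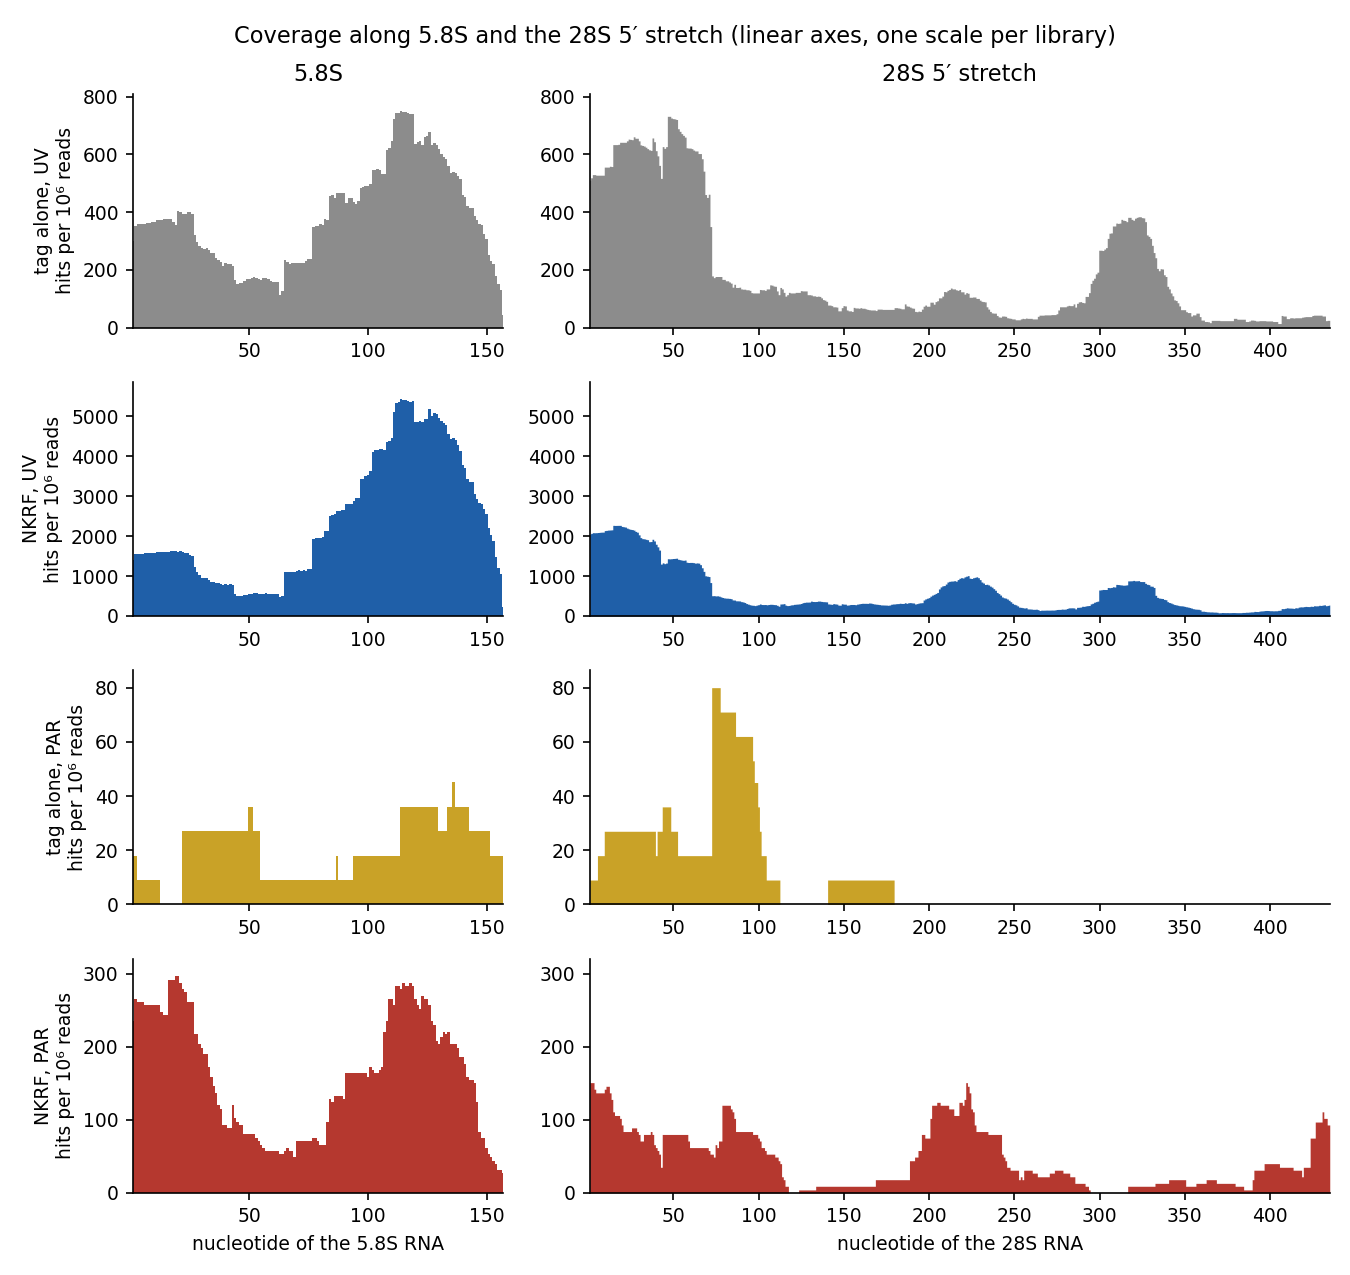
Coverage in normalised hits (hits per 1000000 reads, linear axis, one scale per library) along 5.8S (left) and the 28S 5′ stretch (right) in the 4 libraries, from top to bottom UV with the tag alone, UV with NKRF, PAR with the tag alone and PAR with NKRF. Both UV libraries peak at nucleotide 114 of 5.8S, NKRF PAR is high at the beginning of 5.8S and again around nucleotide 115, and the tag-only PAR profile consists of a few blocks of reads, each read worth about 8.91 normalised hits.

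Across windows of 15 nt, the UV libraries had like profiles. Spearman's rho between them was 0.95 over the 11 windows of 5.8S and 0.85 over the 29 windows of the 28S stretch. For NKRF UV against NKRF PAR it was 0.64 and 0.42. Windows of one RNA share reads and neighbours, so these values describe the profiles and are not tests.

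The comparison of NKRF with the tag alone asks how much more of the pre-rRNA signal these regions held with NKRF. The main scale is the share of all 47S coverage. After UV, 5.8S held 1.23% of it with the tag alone and 3.16% with NKRF, 2.58-fold more (2.42 to 2.75). After PAR it held 0.927% and 0.638%, a ratio of 0.688 whose interval, 0.383 to 1.36, includes 1. Per 1000000 reads of the library, 5.8S coverage was 6.20-fold higher with NKRF after UV and 8.20-fold higher after PAR (4.56 to 16.2), so the side on which the PAR value falls depends on the scale.

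The 28S stretch held 1.65% of 47S coverage with the tag alone and 2.2% with NKRF after UV, 1.34-fold more (1.26 to 1.42). After PAR it held 1.19% and 0.499%, 2.39-fold less with NKRF (1.24 to 4.22). Per 1000000 reads it was 3.22-fold higher with NKRF after UV and 4.98-fold higher after PAR, which turns the PAR direction.

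The stretch differed from the rest of 28S. The remainder of 28S was 3.42-fold higher in share with NKRF after UV and 2.44-fold higher after PAR. The ratio for the stretch was 0.392 times that of the remainder with UV (0.368 to 0.417) and 0.171 times with PAR (0.0956 to 0.307). These quotients do not depend on the scale, and both intervals lie below 1. The neighbouring spacers were 5.34-fold (ITS1) and 16.6-fold (ITS2) higher with NKRF after UV, and 3.08-fold and 5.74-fold higher after PAR, and the share of 18S was lower in both modes, at ratios of 0.513 and 0.0614. Per 1000000 reads 18S was 1.23-fold higher with NKRF after UV and at a ratio of 0.732 after PAR.

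5.8S and the stretch it pairs with also differed from each other with UV. The ratio for 5.8S was 1.93 times that for the stretch (1.77 to 2.10). With PAR the corresponding value was 1.65, with an interval from 0.729 to 3.71.

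Within 5.8S the UV ratio grew toward the 3′ end. It was 1.63 over nucleotides 1 to 53, 2.45 over 54 to 105 and 3.20 over 106 to 157, and the last of these was 1.96 times the first (1.71 to 2.24). With PAR the ratios were 0.860, 0.743 and 0.552, and the last over the first was 0.642 with an interval from 0.200 to 2.07. The PAR pair therefore gave no order that counting error allows to be read.

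Within the 28S stretch the UV ratio was highest in the middle. Over successive parts of 87 nt it was 1.19, 1.26, 3.06, 0.983 and 2.11. The third part, nucleotides 175 to 261, was 2.56 times the first (2.14 to 3.06), and the last part was 1.77 times the first (1.43 to 2.2). With PAR the first and second parts were at ratios of 0.236 (0.127 to 0.480) and 0.161 (0.0695 to 0.416), and the third at 11.3 (1.92 to 455). In the PAR pair the third part was 47.8 times the first (6.05 to 377), on 1 tag-only read in the third part. The fourth and last parts had no tag-only PAR read, and their NKRF PAR means were 12.8 and 31.7 normalised hits. A floor of 3 tag-only reads over every nucleotide of the part gives no bound above 1 on the share scale there.

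A window of 15 nt counted as examined with a mean of at least 20 normalised hits in NKRF or in its tag-only control. It was called when its share of the 47S signal differed at least 2-fold after adding 1 to each mean. With UV, 13 of 40 windows were called higher with NKRF and 0 lower. This is 32.5% higher, against 62.1% of 821 windows over the whole 47S, where 6.46% were called lower. The called windows were 6 of 11 in 5.8S and 7 of 29 in the 28S stretch. The median log2 ratio was 1.21 in 5.8S and 0.67 in the stretch, beside 1.59 for the whole 47S. Measured against the 47S as a whole, these regions thus had a smaller share of UV windows called higher.

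With PAR, the calls over 29 examined windows were 11 higher and 10 lower, beside 49.7% and 32.5% of the 765 windows of the whole 47S. These PAR calls depend on the setting: a pseudocount of 10 gave 0 higher and 21 lower, and coverage per 1000000 reads gave 25 higher and 0 lower. Of the windows called higher, 10, all in the 28S stretch, had tag-only coverage of 0 and so no interval. The other, nucleotides 1 to 15 of 5.8S, rested on about 2 tag-only reads, with a fold of 2.55 (0.675 to 21.5). Of the 10 called lower, 5 had an interval below 1. They were nucleotides 151 to 157 of 5.8S and, in 28S, nucleotides 31 to 45 and 61 to 105.

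Of the 29 windows examined in both modes, 7 were called higher in both, beside 44.5% of 744 windows of the whole 47S. All were in 28S. With PAR at a pseudocount of 10 none is called higher, and 21 windows of these regions are called lower. All 7 had no tag-only PAR coverage and so were examined with PAR through NKRF alone. Of examined windows without tag-only PAR coverage, 10 of 10 in the stretch and 301 of 309 over the 47S were called higher. The PAR call there was thus nearly fixed by the filter and is no separate support. The first run, nucleotides 196 to 255, had UV log2 ratios of 1.36, 1.61, 2.11 and 2.15. Its mean coverage with UV ran from 32.9 to 125 normalised hits per window with the tag alone and from 362 to 923 with NKRF. With PAR the tag-only coverage was 0 in every window and the NKRF means ran from 39.3 to 122. The other run, from nucleotide 391 to the end of the stretch, had UV log2 ratios of 1.20, 1.27 and 1.47. Its UV means were 22.4, 33.9 and 37.5 with the tag alone and 128, 201 and 256 with NKRF, and its PAR means were 0 with the tag alone and 36.4, 32.8 and 81.3 with NKRF. The second run includes the letters complementary to the 5′ end of 5.8S.

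Among the windows of these regions alone, the 3 highest of each NKRF library were in 5.8S. With NKRF UV, nucleotides 106 to 120 had a mean of 4963 normalised hits, 121 to 135 a mean of 4876 and 136 to 150 a mean of 3445. The tag-only UV means there were 684, 621 and 426, and the NKRF shares were 3.02-fold (2.78 to 3.28), 3.26-fold (3.0 to 3.56) and 3.37-fold (3.06 to 3.72) higher. With NKRF PAR the highest windows were 106 to 120 at 264 normalised hits, 16 to 30 at 262 and 1 to 15 at 255. Among these windows, nucleotides 106 to 120 were therefore highest in both NKRF libraries, but the beginning of 5.8S was as high only with PAR.

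**Figure D2:**
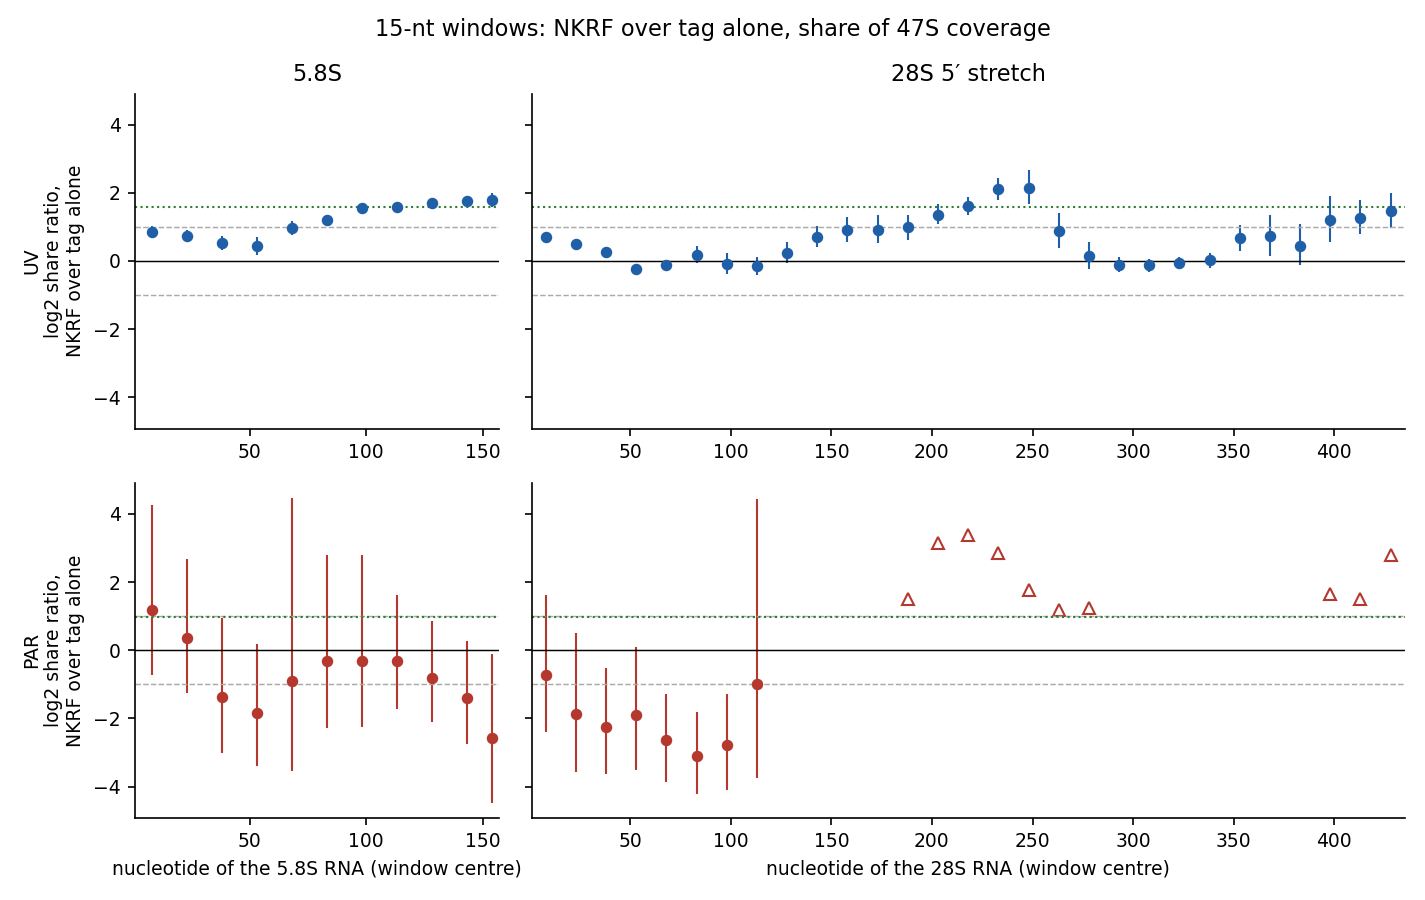
The log2 ratio of the share of 47S coverage, NKRF over tag alone, for each examined 15-nt window of 5.8S (left) and the 28S 5′ stretch (right), with UV above and PAR below. Bars are 95% counting intervals of the ratio without pseudocount, placed around the plotted value; open triangles have no tag-only coverage and no interval; dashed lines mark 2-fold, and the dotted line the median of all examined 47S windows (1.59 with UV, 0.99 with PAR). UV values along 5.8S lie between 0.43 and 1.79 and are highest at its 3′ end. The 28S windows at 196 to 255 and from 391 on are above 1 in both modes, with no tag-only coverage in PAR.

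The mature ends show where RNA in the libraries began or stopped. The step at an end is the mean coverage of the first 20 nt inside over that of the 20 nt of spacer outside. At the 5′ end of 5.8S it was 8.46 in tag-only UV (6.94 to 10.4), 8.36 in NKRF UV (7.71 to 9.08) and 2.2 in NKRF PAR (1.53 to 3.18). In tag-only PAR it was 0.438 on about 2 reads (0.0317 to 6.04). The UV libraries were alike here, and the NKRF PAR step was smaller than either.

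The nucleotides just before the 5.8S 5′ end showed a ladder of starts. In NKRF UV, coverage was 51 normalised hits 7 nt outside, 170 at 6 nt, 445 at 5 nt, 781 at 1 nt outside and 1408 at the first mature nucleotide. In tag-only UV the same positions had 15, 31, 100, 169 and 300. In NKRF PAR they had 75, 71, 204, 190 and 235. The largest single rise was at the first mature nucleotide, 6621, in both UV libraries, but 5 nt before it, at 6616, in NKRF PAR.

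The share of RNA that ran past the end was set against coverage at the third mature nucleotide. At 1 nt outside it was 46.9% in tag-only UV (41.1 to 52.7), 50.2% in NKRF UV (47.7 to 52.6) and 72.8% in NKRF PAR (59.7 to 83.6, of 59 reads). At 5 nt outside it was 27.8%, 28.6% and 78.2% (65.3 to 87.7). At 7 nt outside it was 4.17%, 3.28% (2.46 to 4.21) and 28.7% (17.8 to 42.1). In both UV libraries almost all of the coverage thus began within 7 nt of the mature start, whereas a larger part of the NKRF PAR coverage began at or before 6616. The NKRF PAR rise at 6616 amounted to about 30 reads with one start, and whether they are separate molecules was not tested.

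At the 5′ end of 28S the modes differed more. The step was 20.8 in tag-only UV (16.8 to 25.9), 13.0 in NKRF UV (12.1 to 14.0), 1.64 in tag-only PAR (0.220 to 12.3) and 1.34 in NKRF PAR (0.831 to 2.16). Coverage went from 115 to 511 normalised hits across the end in tag-only UV and from 841 to 2036 in NKRF UV. In NKRF PAR it was 151 on both sides. The UV libraries had a sharp start at the mature nucleotide, and NKRF PAR had none that could be detected at this depth. Whether the PAR coverage holds reads without a changed T is not known, so UV and PAR steps may describe different kinds of reads. With about 1 tag-only PAR read at this border, an effect of the mode cannot be told from one of NKRF.

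The 2 UV libraries also differed from each other at this end. Coverage 1 nt outside was 21.7% of that at the third mature nucleotide with the tag alone (18 to 25.9) and 40.4% with NKRF (38.4 to 42.4). At 2 nt it was 11.1% (8.44 to 14.5) and 15.8% (14.4 to 17.4), and at 5 nt 3.96% (2.41 to 6.30) and 5.76% (4.86 to 6.82). All 3 values were higher with NKRF, and the intervals were apart at 1 nt. In NKRF PAR the values were 100% (89.7 to 100), 84.8% and 70.2% (52.5 to 84.9).

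At the 3′ end of 5.8S coverage declined over many nucleotides before the border. The step was 47.9 in tag-only UV (24.1 to 112), 21.9 in NKRF UV (19 to 25.3), 11.8 in tag-only PAR (1.17 to 581) and 5.62 in NKRF PAR (2.52 to 14.8). In NKRF UV, coverage was 4273 normalised hits at the 20th nucleotide from the end, 1045 at the second-last, 229 at the last and 97 at the first nucleotide of ITS2. In tag-only UV these were 525, 129, 42 and 8. The largest single drop lay before the last mature nucleotide in both UV libraries. In NKRF PAR the coverage was 199, 31, 27 and 27. About 6 of its 7 reads at the third-last nucleotide reached ITS2, a share whose interval, 42.1 to 99.6%, lies above those of tag-only UV (2.23 to 10.9%) and NKRF UV (6.66 to 9.70%).

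For comparison, the step at the 18S 5′ end was 587 in tag-only UV, 247 in NKRF UV, 52.8 in tag-only PAR and 3.96 in NKRF PAR. At the 18S 3′ end it was 7.19, 5.71, 9.09 and 3.35 in the same order, with UV steps below those of the ends described here. The NKRF PAR steps at the 3 ends of 5.8S and 28S described here ran from 1.34 to 5.62. At the 28S 5′ end the interval (0.831 to 2.16) lay below that of the 18S 5′ end (2.64 to 6.06). NKRF PAR coverage went from 142 to 363 normalised hits across the 18S 5′ end, a rise that the 28S 5′ end lacked. At the 3′ end of 28S the NKRF PAR step was 17.8 (6.35 to 69.0).

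The windows next to the ends give the same comparison as levels. The last 15 nt of ITS1 had means of 55.1, 238, 16.2 and 125 normalised hits in UV with the tag alone, UV with NKRF, PAR with the tag alone and PAR with NKRF. The first 15 nt of 5.8S had 361, 1567, 8.40 and 255. Across the other 5.8S end, nucleotides 151 to 157 had 171, 1435, 19.3 and 39.3. The first 15 nt of ITS2 had 6.73, 110, 3.0 and 21.2, and with UV they were called higher with NKRF at a log2 ratio of 2.58. The last 15 nt of ITS2 had 30.1, 176, 10.8 and 101, a UV log2 ratio of 1.24, and the first 15 nt of 28S had 543, 2115, 18.6 and 139, a UV log2 ratio of 0.69. Both end windows of ITS2 were thus called higher with UV and the first 28S window was not.

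**Figure D3:**
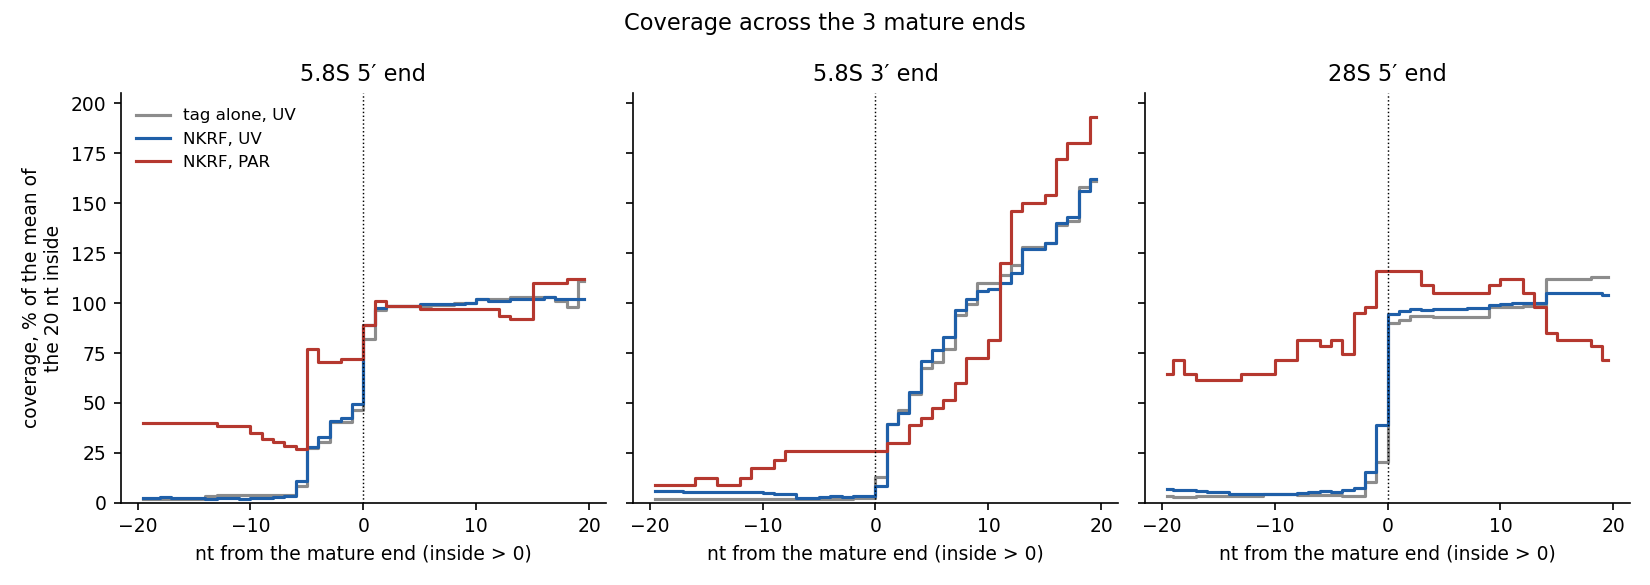
Coverage by nucleotide, as a percentage of the mean of the 20 nt inside the mature RNA, against distance from the 5.8S 5′ end, the 5.8S 3′ end and the 28S 5′ end (dotted line, mature RNA to its right) in tag-only UV, NKRF UV and NKRF PAR. The tag-only PAR library, with 2 to 4 reads at these ends, is not drawn. The UV curves rise near the dotted line, while NKRF PAR rises 5 nt before the 5.8S 5′ end and shows no step at the 28S 5′ end.

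Changed letters in the cDNA can mark crosslinks, because reverse transcription can misread a crosslinked 4-thiouridine and skip or misread bases at UV crosslinks. UV changes also occurred with the tag alone, and which of the changes below mark crosslinks was not tested. In NKRF PAR, substitutions were recorded at T alone. They made up 12.6% of the coverage at T in 5.8S and 19.9% in the 28S stretch, beside 19.3% over the whole 47S. The substitutions came to 1.05 per read in 5.8S and 0.983 in the stretch, counted on the fewest reads that give the coverage. With about 1 change per read, a share at one T is relative to the other T of the same reads. Whether reads without a change were kept is not known. The tag-only PAR substitutions were not analysed here, since that file's columns do not match its header.

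T was substituted in at least 50% of the coverage, with at least 10 reads, at 4 of 62 positions, against 8.11% of 1467 over the 47S. All 4 were in the 28S stretch, of 28 T with enough reads, and 0 of 34 in 5.8S passed. The 4 are shown with 10 nt on each side, because each is the base most often changed in its surroundings, and the changed T is in capitals. They lie at 7999 to 8019, 8018 to 8038, 8126 to 8146 and 8347 to 8367 of the 47S.

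28S T77: ctaaccaggaTtccctcagta

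28S T96: taacggcgagTgaacagggaa

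28S T204: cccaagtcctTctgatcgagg

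28S T425: gtgaaaccgtTaagaggtaaa

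T77 was substituted in 62.0% of the coverage (35.4 to 84.8, 16 reads) and T96 in 63.1% (38.4 to 83.7, 19 reads). T204 was substituted in 55.0% (35.3 to 74.5, 27 reads) and T425 in 53.3% (27.8 to 77.0, 17 reads). All 4 intervals include 50%. In NKRF UV the same positions were substituted in 1.21%, 6.27%, 1.24% and 0.830%. T204 lies in the run of windows at 196 to 255 that was called higher with NKRF in both modes, without tag-only PAR coverage. T425 lies in the run that starts at 391, also without tag-only PAR coverage.

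The T next to 3 of these sites had no change. T203, next to T204, had 0 substitutions in 27 reads, which allows up to 12.8%. T424, next to T425, had 0 in 17 reads, which allows up to 19.5%. T78, next to T77, had 0 in 16 reads, which allows up to 20.6%. Some other neighbouring T were all changed, as at T73 and T74 of 5.8S (25.4% and 43.7%). So were T110 and T111 of 5.8S (26.7% and 13.6%) and T35, T36 and T37 of 28S (33.8%, 11.2% and 36.9%). Elsewhere a neighbour was unchanged. T99 and T100 of 5.8S were at 0 and 22.0%, and T45 and T46 of 28S at 16.2% and 0. T63 and T64 of 5.8S both had no change. Since shares are relative among T of the same reads, picking T with a high share itself favours a low share at the neighbour.

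In 5.8S the highest shares, all below 50%, were 43.7% at T74 (19.8 to 70.1, 16 reads) and 42.5% at T18 (30.3 to 55.2, 66 reads). T146 followed at 35.5% (18.6 to 55.9), then T86 at 33.1% and T5 at 30.7% (19.2 to 43.9, 59 reads). Of the 34 T with at least 10 reads, 9 had no substitution, among them T7 with 58 reads (up to 6.16%) and T14 with 55 reads (up to 6.49%). T18 lies in the part of 5.8S with the highest NKRF PAR coverage.

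Spacer T beside the ends were also substituted in NKRF PAR. At 6610 of the 47S, in ITS1 and 11 nt before 5.8S, 64.7% of the coverage was changed (42.7 to 83.6, 23 reads). At 7926, in ITS2 and 7 nt before 28S, 46.2% was changed (25.6 to 67.2, 24 reads). At 6619, 2 nt before 5.8S, it was 23.2% (11.8 to 38.6, 43 reads), and at 6616, where coverage began to rise, 1.96%.

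**Figure D4:**
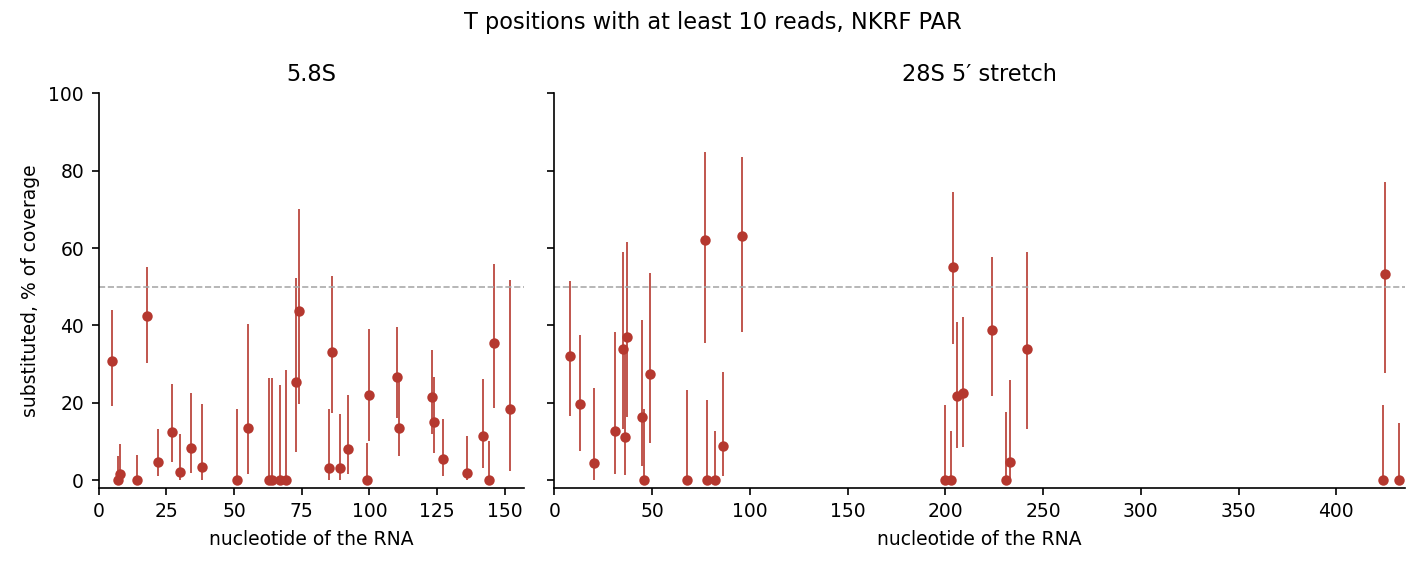
Share of NKRF PAR coverage substituted at each T of 5.8S (left) and the 28S 5′ stretch (right) with at least 10 reads, in percent with 95% intervals; the dashed line marks 50%. The points above it are T77, T96, T204 and T425 of 28S, and no T of 5.8S reaches it.

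After UV, substitutions were most frequent at A and less so with NKRF than with the tag alone. At A they made up 4.63% of coverage with the tag and 2.24% with NKRF in 5.8S, and 4.90% and 2.68% in the stretch. The whole 47S gave 5.10% and 2.61% at A. At T the shares were 1.61% and 1.32% in 5.8S and 1.43% and 1.80% in the stretch. The next values are for 3 single A of 28S, picked after the values were seen. A12 was substituted in 16.7% with the tag (13.4 to 20.4) and 1.16% with NKRF (0.763 to 1.68). A42 was at 2.14% (1.02 to 3.85) and 12.7% (11.2 to 14.4), and A359 at 34.2% (18.6 to 53.2) and 13.4% (8.72 to 19.5). A12 was thus changed more often with the tag alone, and A42 more often with NKRF. The intervals of A359 overlap, on about 32 tag-only reads.

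UV deletions were most frequent at T. They were 0.606% of the coverage at T in 5.8S with the tag alone and 0.276% with NKRF, and 0.553% and 0.452% in the stretch. The whole 47S gave 0.323% and 0.382%. Deletions at T in 5.8S were thus no more frequent with NKRF than with the tag.

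A deletion in at least 10% of the coverage was found at 1 position in each UV library, beside 0.235% of positions over the 47S in NKRF UV and 0.303% in tag-only UV. It was the same T of 28S, T391, shown because it is the only site past the threshold, at 8313 to 8333 of the 47S with the deleted T in capitals. The T is the first of a run of 3 T, so which of them was deleted cannot be told.

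28S T391: tgaaaagaacTttgaagagag

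T391 was deleted in 28% of 25 normalised hits with the tag alone (11.3 to 52.2) and in 13.0% of 115 with NKRF (7.50 to 20). The intervals overlap, and the site was present without NKRF. Among deeply covered T, picked after the values were seen, the most deleted were T127 of 5.8S, at 6.32% with the tag (4.46 to 8.80) and 2.34% with NKRF (1.95 to 2.77), and T35 of 28S, at 6.13% (4.23 to 8.54) and 4.56% (3.72 to 5.57).

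The letters of the 2 RNAs allow many pairings. There were 120 runs of at least 6 complementary letters between 5.8S and the 28S stretch, with G-T pairs allowed, 40 of at least 7 and 1 of 11. The run of 11, with 1 G-T pair, joined nucleotides 4 to 14 of 5.8S to 420 to 430 of 28S, and a match of letters does not show that the strands were paired in the crosslinked RNA. The 5.8S strand of this run had mean coverage of 366, 1581, 7.36 and 256 normalised hits in UV with the tag alone, UV with NKRF, PAR with the tag alone and PAR with NKRF, and the 28S strand had 40.5, 248, 0 and 68.5. The 5.8S strand was thus the higher one in both UV libraries and in NKRF PAR. The tag-only PAR mean of 7.36 is below the 8.91 normalised hits of 1 read and gives no order.

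Changes within the run of 11 were unevenly spread over its T in NKRF PAR. Of its 4 T in 5.8S, T5 was substituted in 30.7%, T8 in 1.56%, and T7 and T14 in 0. Of its 2 T in 28S, T425 was substituted in 53.3% and T424 in 0.

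A run of 7 near the start of 28S joined nucleotides 142 to 148 of 5.8S to 13 to 19 of 28S, and another of 7 joined the overlapping nucleotides 143 to 149 to 7 to 13, each with 1 G-T pair. In the first, the 5.8S strand had means of 390, 3104, 28.3 and 129 normalised hits in the same library order. Its 28S strand had 614, 2234, 27.0 and 114. In the second, the 5.8S strand had 376, 2998, 27.0 and 117, and the 28S strand 544, 2124, 23.1 and 140. In both, the higher strand was 28S with the tag alone after UV and 5.8S with NKRF after UV. The PAR strands were near each other. T144 of 5.8S, in both runs, had no substitution in 35 NKRF PAR reads. T146 of 5.8S and T13 of 28S, also in both, were at 35.5% and 19.7%. T142 of 5.8S, in the first only, was at 11.3%, and T8 of 28S, in the second only, at 32.1%. Which of these runs was paired was not tested.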

How the data were processed

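The 4 CRAC libraries, 1 per group, were compared within a crosslinking mode. Mapping used Bowtie2 2.2.4, per the submitters' processing notes. For the reference sequence, read filters, mismatch settings, multiply mapped reads and duplicate removal, settings were not given in the sources used here. Per the file headers, the deposited coverage (signal) is a number of hits per nucleotide with substitutions and, for UV, deletions. From the values, the authors scaled it to 1000000 reads and rounded it. The deposited class score, which sums to about 1000000 per library, was used only as a check of that scaling. In the tag-only PAR file the header is shifted, and coverage was read from the column headed as substitutions. There were 0 columns without a sample.

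The value of 1 read is the spacing that explains the low values, and it explained 100% in each library. In NKRF UV it is below 1, so this could not fail. The fewest reads behind a region are the sum of its rises in coverage over that value. Quotients of ratios carry intervals from the normal approximation on the log scale. All intervals, shares, 15-nt windows, steps at ends, changes and complementary runs were computed with Python 3.11.15, numpy 2.4.6, pandas 2.3.3 and scipy 1.17.1. The functions were tested on simulated data. Window calls need a mean of 20 normalised hits and a 2-fold difference with a pseudocount of 1. Sequences are those of the deposited files, positions are those of their 47S, and no genome build was used.

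The regions, lists and thresholds were chosen with earlier results of these data known. The named positions and windows were, by rule, the peaks, the 3 highest NKRF windows, windows called alike in both modes, windows beside the ends, sites past the thresholds and complementary runs; others are marked as picked after their values were seen or given as the next highest. Alternatives were the scale, the denominator, the borders, the window length, the pseudocount, the minimum coverage, the fold and the thresholds for changes.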

Additional observations from a re-analysis of the deposited data

Results flagged for a closer look

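Several ratios of NKRF over the tag alone lay on opposite sides of 1 in the UV and PAR pairs, as shares of 47S coverage. None of these differences between modes was tested, since each group has 1 library, and whether the PAR libraries hold the same kind of reads is not known. For 5.8S the ratio was 2.58 with UV and 0.688 with PAR, and for the 28S stretch 1.34 and 0.418. As a share of mature rRNA coverage the 5.8S PAR ratio was 1.23. The parts of 5.8S at nucleotides 1 to 53, 54 to 105 and 106 to 157 were at 1.63, 2.45 and 3.20 with UV and 0.860, 0.743 and 0.552 with PAR. The PAR intervals of 5.8S (0.383 to 1.36) and of its 3 parts (0.378 to 2.41, 0.299 to 2.38 and 0.243 to 1.55) all include 1. Nucleotides 1 to 87 and 88 to 174 of 28S were at 1.19 and 1.26 with UV and 0.236 and 0.161 with PAR. Per 1000000 reads, all of these were above 1 in both modes.

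Among windows of 15 nt, 2 had a call of higher for UV but lower for PAR, both at the 3′ end of 5.8S. Nucleotides 136 to 150 had log2 ratios of 1.75 and -1.41, and nucleotides 151 to 157 had 1.79 and -2.58, on about 5 and 3 tag-only PAR reads. Over the whole 47S, 48 windows were called in these opposite ways.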

How the results depend on the processing

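No paired analysis was possible because each group has 1 library and nothing was tested across samples. Of 73 alternative values, 44 stayed within the counting interval or within 1.5 times the count. Per 1000000 reads, the share ratios were 6.20 (5.8S, UV), 8.20 (5.8S, PAR), 3.22 (28S stretch, UV) and 4.98 (28S stretch, PAR, which turned its direction), 40 windows were higher with UV, and with PAR 25 were higher and 0 lower. As shares of mature rRNA coverage, the UV ratios were 2.86 for 5.8S and 1.48 for the 28S stretch, and the PAR ratio of 5.8S was 1.23. Windows of 29 nt, 21 in all, gave 8 higher with UV, and for PAR 5 higher and 6 lower. At 3-fold, 7 were higher with UV and 6 with PAR. A pseudocount of 10 gave 0 higher and 21 lower with PAR, and a minimum of 50 gave 5 higher with PAR. With 10 nt on each side, the steps were 4.64 (tag-only UV) and 4.55 (NKRF UV) at the 5.8S 5′ end, 1.90 (NKRF PAR) at the 5.8S 3′ end, and 15.2 (tag-only UV) and 9.74 (NKRF UV) at the 28S 5′ end. With 40 nt, they were 13.4 (tag-only UV) and 11 (NKRF UV) at the 5.8S 5′ end, 113 (tag-only UV) at the 5.8S 3′ end and 9.85 (NKRF UV) at the 28S 5′ end. Substituted T numbered 1 with at least 20 reads and 14 at a threshold of 30%, and deleted positions of tag-only UV numbered 8 at a threshold of 5%. Apart from the scale, the cause of these shifts was not tested. Of the 11 PAR windows called higher, 10 had tag-only coverage of 0, and the 12 and 13 tag-only PAR reads limit every PAR ratio.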
